A study of Mus musculus with 8 samples.

Results

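The genes described here coat lipid droplets, release fatty acids from them or make diacylglycerol, from which their triglyceride is built. They are the perilipins Plin1, Plin2, Plin3, Plin4 and Plin5, the lipase genes Pnpla2 and Lipe, the lipase inhibitor gene G0s2 and the lipin genes Lpin1 and Lpin2. The genes were chosen by name with their log2 changes between digoxin and vehicle hearts already known, and a gene's value is the mean over probe sets annotated to exactly 1 symbol. All 10 were measured, by 12 probe sets, among 22180 genes tested.

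RNA came from hearts of wild-type male mice aged 8 to 10 weeks, of the strain labelled C57BL6JRj (C57BL6/J in the husbandry text), on standard chow with 12 h of light and 12 h of dark. All were injected intraperitoneally at ZT5 (ZT0 is lights-on) and killed at ZT9. The digoxin group (5 arrays) received 1 mg/kg of digoxin, a cardiac glycoside that inhibits the Na/K-ATPase. The vehicle group (3 arrays) received the co-solvent, which held 40% propylene glycol and 10% ethanol, with sodium phosphate at 0.3% and citric acid at 0.08%. Where the series design speaks of 4 vehicle hearts, 3 were analysed here. Nothing in the labels says whether each numbered sample is a separate animal, so the errors given below measure the spread between these samples. RNA of the whole heart was measured, so fewer cells of a type and less RNA per cell cannot be told apart. The log2 values were centred probe set by probe set. They give differences between arrays and no level, so genes are not compared by level, and the heart label could not be checked against the levels of its markers.

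A lipid droplet is a core of triglyceride under a single layer of phospholipid, and perilipins sit on that layer and control which enzymes reach the core. Adipose triglyceride lipase (Pnpla2) removes the first fatty acid and hormone-sensitive lipase (Lipe) acts mainly on the diacylglycerol left behind. Lipins convert phosphatidate to diacylglycerol, the precursor of triglyceride, and lipin 1 also acts in the nucleus as a coactivator of PPAR alpha. The heart burns mainly fatty acids and holds small droplets close to its mitochondria as a buffer between uptake and oxidation.

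In digoxin hearts Plin4 stood at 1.76 times the vehicle level and Lpin1 at 1.36 times. Both were called higher in limma, with Benjamini-Hochberg adjustment over all genes and a threshold of 0.05. So 2 of the 10 genes were called higher, where 0.947% of all genes tested were called higher. None of the 10 was called lower in limma, where 0.415% of all genes were, and at an unadjusted p under 0.05 the counts were 4 higher and 1 lower, where 6.32% of all genes were higher and 5.99% lower at that p (12.3% in all). In 3 genes the values of both groups were separate (8.16% of all genes, either direction), with Plin4 and Lpin1 higher (4.4% of all genes) and G0s2 lower (3.76% of all genes). The median log2 change over the 10 genes was 0.16, and over all genes it was -0.011. Since the genes were chosen with this comparison known, these counts and the changes below are a description.

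**Figure D1:**
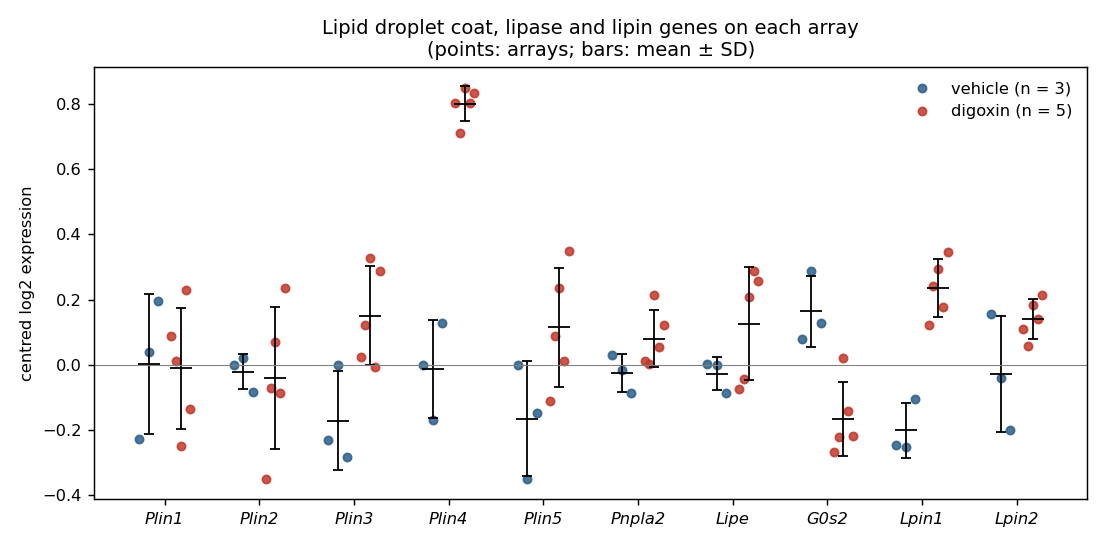
Centred log2 expression (vertical axis) of the 10 genes on each of the 5 digoxin and 3 vehicle arrays, with black bars for the mean and SD of each group. In Plin4 the digoxin arrays lie between 0.71 and 0.85 and the vehicle arrays between -0.17 and 0.13, whereas in Plin1 and Plin2 the groups lie over each other.

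Plin4 encodes perilipin 4, a coat protein with a long repeated amphipathic stretch, known from adipocytes and striated muscle, that binds young droplets. Its centred log2 value was 0.81, 0.71, 0.85, 0.80 and 0.84 on digoxin arrays 1 to 5, and 0, -0.17 and 0.13 on vehicle arrays 1 to 3. All digoxin arrays lay above all vehicle arrays, and they lay closer together than the vehicle arrays. Digoxin hearts had a mean of 0.80 ± 0.05 (SD, n = 5), and vehicle hearts one of -0.014 ± 0.15 (SD, n = 3). The log2 change was 0.82 with an SE of 0.07 and a 95% interval of 0.66 to 0.97. By size this was change number 60 among the 22180 genes. With each array left out in turn it was lowest, at 0.74, without vehicle replicate 2 and highest, at 0.89, without vehicle replicate 3, and it was called each time.

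The 250 bases before the RefSeq start of each gene were searched on both strands for 7 motifs, to show the sequence at both genes called and at G0s2, the lowest of the 10. The motifs were the hexamer AGAACA of the glucocorticoid receptor and its full palindrome (AGAACA and TGTTCT with 3 free bases between them), the nuclear receptor hexamer AGGTCA and the PPAR direct repeat (AGGTCA followed by the same letters after 1 free base), the E-box CACGTG, the FOXO site GTAAACA and the CCAAT box. Each hexamer is part of the longer motif named after it. The 10 genes have 14 start sites in the table, whose build is GRCm38.p6. The stretch before Plin4, on the minus strand at chr17:56109783-56110032, is given 5′ to 3′ with motif matches in capitals.
Plin4: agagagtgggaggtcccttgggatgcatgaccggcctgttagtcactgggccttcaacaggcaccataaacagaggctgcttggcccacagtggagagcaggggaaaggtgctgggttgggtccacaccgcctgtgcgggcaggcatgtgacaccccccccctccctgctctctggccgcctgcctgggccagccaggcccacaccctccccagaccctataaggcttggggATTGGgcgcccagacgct
In it the single match was a CCAAT box on the opposite strand, 18 to 14 bases before the start. A CCAAT box lay in 33.8% of 32851 such windows of all genes and in 5 of the 14 windows here, those of Plin2, Plin3, Plin4 and 1 each of Plin5 and Lpin2. No window of the 10 genes held the full glucocorticoid palindrome (0.00913% of all windows) or the PPAR repeat (0.0335%), which says only that these letters are not in these windows.

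Lpin1 encodes lipin 1, the main phosphatidate phosphatase of muscle. It stood at 0.12, 0.24, 0.29, 0.18 and 0.35 on digoxin arrays 1 to 5, and at -0.25, -0.25 and -0.11 on vehicle arrays 1 to 3. Again no digoxin array reached down to a vehicle array, and the gap between the nearest arrays of the groups was smaller than in Plin4. The means were 0.24 ± 0.09 (SD, n = 5) and -0.20 ± 0.08 (SD, n = 3), and the log2 change was 0.44 (SE 0.06, 95% interval 0.30 to 0.58). Its call was lost without vehicle replicate 1 (log2 change 0.42) or vehicle replicate 2 (0.41) and was kept in the other 6 fits that left out an array.

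The stretch before Lpin1 (GRCm38.p6, minus strand, chr12:16610967-16611216) is shown because it held both receptor hexamers, in capitals.
Lpin1: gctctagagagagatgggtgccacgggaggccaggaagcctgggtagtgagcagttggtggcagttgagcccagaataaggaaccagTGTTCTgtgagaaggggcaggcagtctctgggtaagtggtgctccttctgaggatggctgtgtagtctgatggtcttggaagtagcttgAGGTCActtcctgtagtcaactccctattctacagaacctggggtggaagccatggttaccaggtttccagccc
The first is the glucocorticoid receptor hexamer on the opposite strand, 163 to 158 bases before the start, found in 16.1% of all windows. The second is AGGTCA, 74 to 69 bases before the start, found in 14% of all windows. AGAACA was also found in 1 of the 3 windows of Lpin2, and AGGTCA also before Plin2 and in 1 of the 2 windows of Plin5. The E-box was found before Lipe and Lpin2 (6.02% of all windows), and so was the FOXO site (3.17%). These matches are letters in a window and were not measured as binding.

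Lpin2, the gene of lipin 2, stood at 0.11, 0.06, 0.18, 0.14 and 0.21 on digoxin arrays 1 to 5, and at 0.16, -0.04 and -0.20 on vehicle arrays 1 to 3. Vehicle array 1 lay among the digoxin arrays and the other vehicle arrays lay below them. The log2 change was 0.17 (SE 0.08, 95% interval -0.0063 to 0.35) and was not called. It was 0.08 without vehicle replicate 3 and 0.26 without vehicle replicate 1. The probe sets of Lpin2 differed, with log2 changes of 0.30 (SE 0.07) and 0.04 (SE 0.10).

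**Figure D2:**
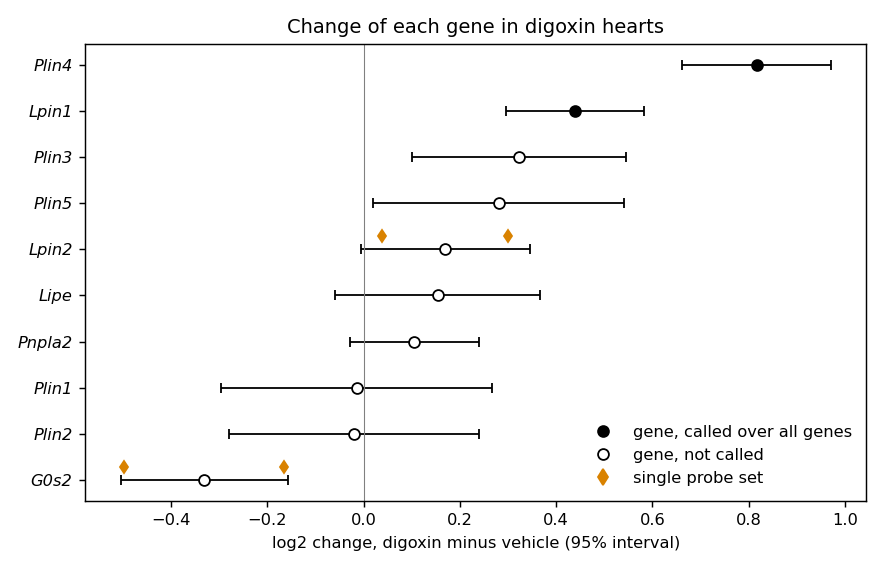
Log2 change (digoxin minus vehicle, horizontal axis) of each of the 10 genes with its 95% interval from limma, ordered by size. Filled points mark the genes called over all genes, Plin4 (0.82) and Lpin1 (0.44), and orange diamonds mark the single probe sets of the genes that have more than 1, G0s2 (-0.50 and -0.17) and Lpin2 (0.30 and 0.04).

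The other perilipins did not pass. Plin3, a coat protein that moves between the cytosol and new droplets, stood at 0.02, 0.12, 0.33, -0.00605 and 0.29 on digoxin arrays 1 to 5, and at -0.23, 0 and -0.29 on vehicle arrays 1 to 3. The groups touched at digoxin array 4 and vehicle array 2. The log2 change of Plin3 was 0.32 (SE 0.10, 95% interval 0.10 to 0.55).

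Plin5 encodes the perilipin of oxidative tissues, which brings droplets and mitochondria together and is abundant in heart. It stood at -0.11, 0.09, 0.24, 0.01 and 0.35 on digoxin arrays 1 to 5, and at 0, -0.35 and -0.15 on vehicle arrays 1 to 3. Digoxin array 1 fell below vehicle array 1, so the groups overlapped. The log2 change of Plin5 was 0.28 (SE 0.11, 95% interval 0.02 to 0.54), and with single arrays left out it lay between 0.19 and 0.36.

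Plin2 encodes the perilipin found on droplets of most cell types, and its RNA commonly follows the fatty acid load of a cell. Its values were -0.35, -0.07, 0.07, -0.09 and 0.24 on digoxin arrays 1 to 5, and 0, 0.02 and -0.08 on vehicle arrays 1 to 3. The digoxin arrays lay on both sides of the vehicle arrays, and their SD of 0.22 was the widest of the 10 genes in that group, against 0.06 in the vehicle group. The log2 change was -0.02 with a 95% interval of -0.28 to 0.24. It lay between -0.09 and 0.06 with single arrays left out, so it has no settled direction.

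Plin1, the perilipin of adipocytes that holds back lipolysis until it is phosphorylated, stood at 0.09, 0.01, -0.25, 0.23 and -0.14 on digoxin arrays 1 to 5, and at -0.23, 0.04 and 0.20 on vehicle arrays 1 to 3. The groups covered nearly the same range. The log2 change was -0.014 (95% interval -0.30 to 0.27), and it lay between -0.13 and 0.08 with single arrays left out, again on both sides of zero.

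Among the lipases, Pnpla2 stood at 0.01, 0.0013, 0.21, 0.05 and 0.12 on digoxin arrays 1 to 5, and at 0.03, -0.02 and -0.09 on vehicle arrays 1 to 3. Lipe stood at -0.07, -0.05, 0.21, 0.29 and 0.26, and at 0.0026, 0 and -0.09. In Lipe digoxin arrays 3, 4 and 5 lay above the vehicle arrays while digoxin arrays 1 and 2 lay within their range. The log2 change was 0.11 for Pnpla2 (SE 0.06, 95% interval -0.03 to 0.24) and 0.15 for Lipe (SE 0.09, 95% interval -0.06 to 0.37), and neither gene was called. Both intervals included zero.

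G0s2, whose small protein binds adipose triglyceride lipase and blocks it, had the lowest change of the 10 genes. It stood at -0.27, -0.22, 0.02, -0.14 and -0.22 on digoxin arrays 1 to 5, and at 0.08, 0.29 and 0.13 on vehicle arrays 1 to 3. Every digoxin array lay below every vehicle array, with digoxin array 3 nearest to them. The means were -0.17 ± 0.11 (SD, n = 5) and 0.16 ± 0.11 (SD, n = 3), and the log2 change was -0.33 (SE 0.08, 95% interval -0.50 to -0.16), or 0.795 times the vehicle level. This was not called with all arrays (adjusted p = 0.093 in limma). It was called without digoxin replicate 3 (log2 change -0.38), the array nearest to the vehicle arrays, and with array weights (-0.38). In the other 7 fits that left out an array it was not called, with the highest adjusted p, 0.236, without vehicle replicate 2. The probe sets of G0s2 differed, with log2 changes of -0.50 (SE 0.07) and -0.17 (SE 0.09), and the first was called when each probe set was tested on its own.

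The stretch before G0s2 (GRCm38.p6, minus strand, chr1:193273189-193273438) is given beside those of Plin4 and Lpin1. None of the 7 motifs was found in it, so it has no capitals. That also held for the windows of Plin1 and Pnpla2 and for a window each of Plin5 and Lpin2. How many windows of all genes hold none of the motifs was not counted.
G0s2: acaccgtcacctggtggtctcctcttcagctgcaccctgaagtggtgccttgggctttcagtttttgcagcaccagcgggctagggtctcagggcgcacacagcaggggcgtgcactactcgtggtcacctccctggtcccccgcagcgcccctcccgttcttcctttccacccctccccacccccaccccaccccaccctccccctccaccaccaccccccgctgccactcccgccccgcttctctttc
By base composition it was 67.2% G and C, against 65.2% before Plin4 and 54.8% before Lpin1.

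**Figure D3:**
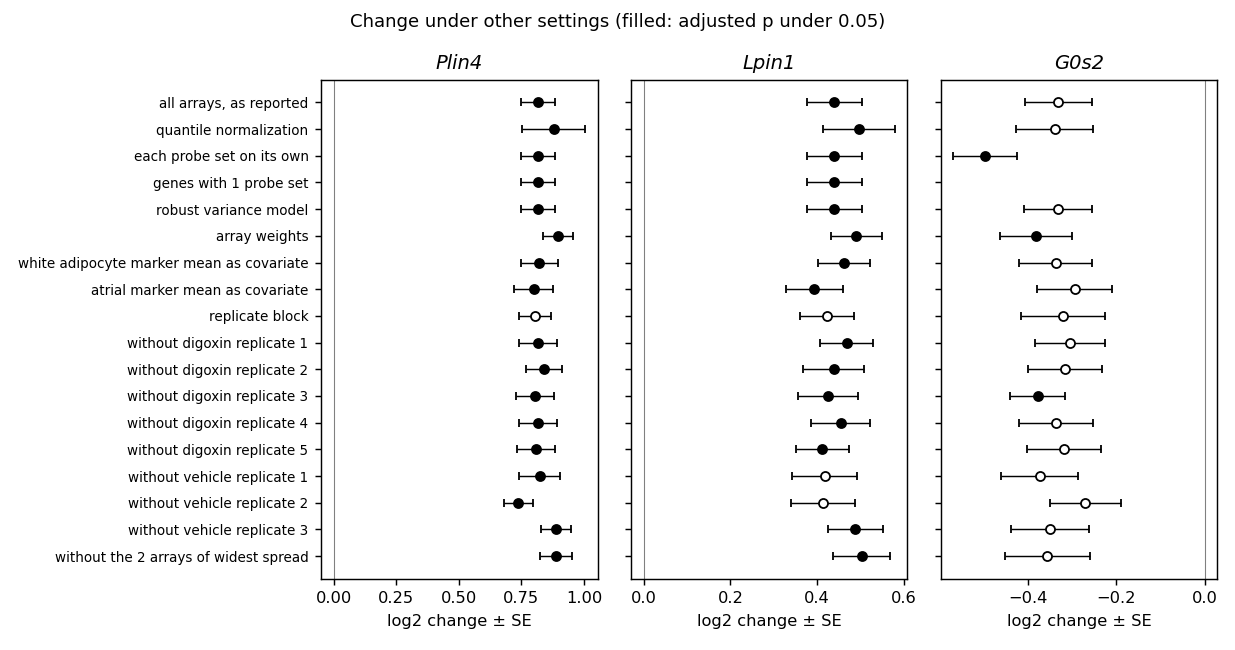
Log2 change with its SE (horizontal axis) of Plin4, Lpin1 and G0s2 in each fit of the data, with filled points where the adjusted p was under 0.05; changed thresholds are not drawn. Plin4 is filled in every fit but that with the replicate block, Lpin1 is open there and without vehicle replicate 1 or 2, and G0s2 lies below zero throughout; it has no point with 1 probe set per gene.

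Within the digoxin group several genes had the same arrays at the top. Digoxin arrays 3 and 5 were the highest pair in 7 of the 10 genes (Plin2, Plin3, Plin4, Plin5, Pnpla2, Lpin1 and Lpin2), where 12% of all genes had that pair highest, and digoxin array 1 was the lowest in 5 (Plin2, Plin5, Lipe, G0s2 and Lpin1), where it was in 20.8% of all genes. The full order of the 5 arrays was the same in Plin2, Plin5 and Lpin1, and the lowest array differed among the other genes. In Plin1 the order was turned, with digoxin array 4 highest and digoxin array 3 lowest. The mean over 22 measured genes of PPAR receptors, coactivators and targets had the same highest pair, at 0.05 on digoxin array 3 and 0.06 on digoxin array 5, against -0.09, -0.02 and -0.10 on digoxin arrays 1, 2 and 4, and 0.10, -0.18 and -0.17 on vehicle arrays 1 to 3. Of the other lists described below, lipolysis (0.07 and 0.09 on digoxin arrays 3 and 5) and triglyceride synthesis (0.02 on each) had that highest pair too. The lists of droplet proteins and lipin partners did not. What sets digoxin arrays 3 and 5 apart was not tested.

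Other genes of the pathway came from 5 lists. Over all genes tested, 0.947% were called higher and 0.415% lower, and the counts of calls below stand beside these shares. Of 19 measured lipolysis genes, 1 rose, none fell and 18 did not pass. The one that rose was Gpihbp1, whose protein carries lipoprotein lipase across the capillary wall. Digoxin hearts had a mean of 0.34 ± 0.03 (SD, n = 5) and vehicle hearts one of -0.13 ± 0.10 (SD, n = 3), which gives a log2 change of 0.47 (SE 0.05) with an adjusted p of 0.0038 in limma over all genes. Its groups did not overlap, and its call held in all 8 fits that left out an array. Abhd5, the coactivator of adipose triglyceride lipase, stood at 0.03 (95% interval -0.13 to 0.19). The median log2 change of the list was 0.08, with 4 genes at an unadjusted p under 0.05, a p that 12.3% of all genes had.

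None of 14 measured droplet proteins passed in limma, and 3 had an unadjusted p under 0.05 (12.3% of all genes). The genes of smallest p were Cidea, a droplet fusion protein, at 0.22 (SE 0.05, adjusted p = 0.122 in limma), and Spg20, the gene of spartin, at 0.21 (SE 0.07, adjusted p = 0.235). The median of the list was 0.0096.

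None of 18 measured triglyceride synthesis genes passed in limma either, with 6 at an unadjusted p under 0.05 (12.3% of all genes). Dgat2, which catalyses the last step, stood at 0.20 (SE 0.05, adjusted p = 0.138 in limma), and Agpat1, which adds the second fatty acid, at -0.28 (SE 0.09, adjusted p = 0.228). The list's median was 0.0017, with 9 genes higher and 9 lower in mean.

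Of 13 measured lipin partners, phosphatidate phosphatases and enzymes that use phosphatidate or diacylglycerol, 1 rose and 12 did not pass. This was Dgke, a diacylglycerol kinase, which turns diacylglycerol back into phosphatidate. Its log2 change was 0.26 (SE 0.05, adjusted p = 0.0477 in limma), from probe sets at 0.52 and -0.0049. The call was lost in all 8 fits that left out an array, with the highest adjusted p, 0.131, without digoxin replicate 5 and the lowest, 0.0645, without digoxin replicate 2. The third lipin gene, Lpin3, stood at 0.36 (SE 0.11) and did not pass (adjusted p = 0.196 in limma), although its groups did not overlap. Groups were separate in 3 genes of the list that were higher (4.4% of all genes) and in 2 that were lower (3.76%). The median of this list was 0.08, with 2 genes at an unadjusted p under 0.05 (12.3% of all genes).

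Of the 22 measured PPAR receptor, coactivator and target genes, 1 rose, 1 fell and 20 did not pass. The genes that changed encode regulators and not target enzymes. Ppara, the receptor that drives fatty acid oxidation genes and several perilipins, rose by 0.38 (SE 0.05, adjusted p = 0.0092 in limma). Ppargc1b, the gene of the coactivator PGC-1 beta, fell by 0.53 on the log2 scale (SE 0.08, adjusted p = 0.017). Its call was lost without vehicle replicate 1 (adjusted p = 0.055) or vehicle replicate 2 (0.0537). Ppargc1a, the gene of PGC-1 alpha, stood at 0.36 (adjusted p = 0.129) and passed without vehicle replicate 1 (0.46, adjusted p = 0.0443). Over the list the median was 0.06, with 6 genes at an unadjusted p under 0.05 (12.3% of all genes).

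**Figure D4:**
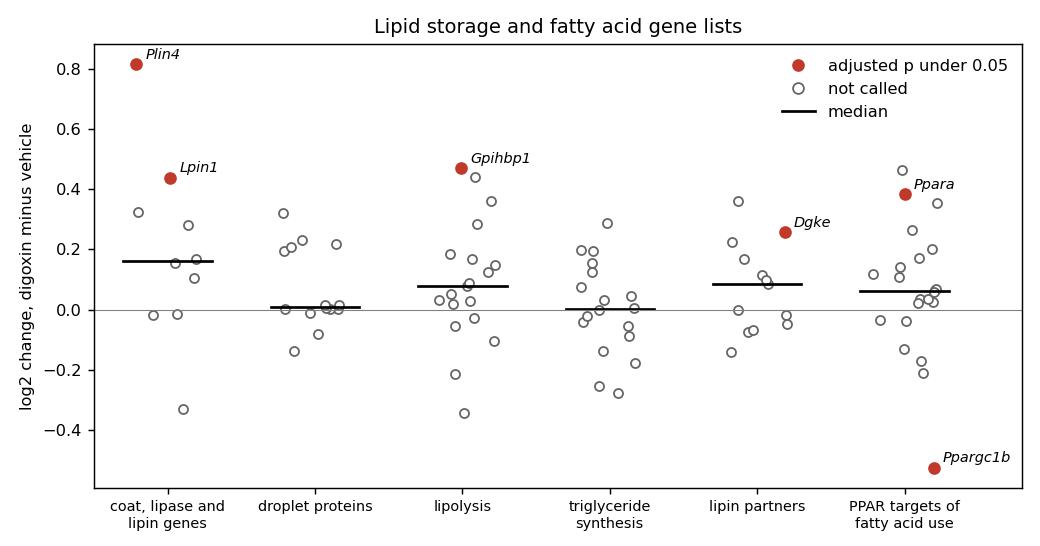
Log2 change (digoxin minus vehicle, vertical axis) of each measured gene of the coat, lipase and lipin genes and of the 5 pathway lists, with black lines at the medians. Red points passed the adjusted p of 0.05 and are named; outside the 10 genes these are Gpihbp1 (0.47), Dgke (0.26), Ppara (0.38) and Ppargc1b (-0.53).

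Perilipin 1, perilipin 4, G0s2 and both lipases are abundant in adipocytes, so markers of fat are given beside them. Of 11 white adipocyte markers 9 were measured and none was called in limma (1 at an unadjusted p under 0.05, where 12.3% of all genes were). Their mean lay between -0.05 and 0.67 on digoxin arrays and between -0.03 and 0.11 on vehicle arrays. The 0.67 was that of digoxin array 4, where Plin1 and Lipe were highest within their group, and the next digoxin array stood at 0.19. On digoxin array 4 Car3 stood at 2.69, Cidec at 1.35 and Retn at 0.82, but Adipoq at 0.24 and Fabp4 at -0.08. Lipe stood at 0.29 there and at 0.26 on digoxin array 5, where the marker mean was -0.04. Adipoq, the adiponectin gene, had a log2 change of -0.05 (SE 0.08), Lep, the leptin gene, of -0.06 (SE 0.15), and Fabp4 of 0.02 (SE 0.05). In mean 6 of the 9 were higher in digoxin hearts, with a median of 0.11. Thrsp, a gene of fat synthesis, was highest at 0.35 (SE 0.12, adjusted p = 0.284 in limma) with groups that did not overlap, and Car3 stood at 0.20 (SE 0.60). With the marker mean as a covariate the log2 changes were 0.82 for Plin4, 0.46 for Lpin1 and -0.34 for G0s2, and without digoxin replicate 4 they were 0.82, 0.45 and -0.34.

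All 7 brown adipocyte markers were measured and none was called (2 at an unadjusted p under 0.05). Their mean lay between 0.0084 and 0.02 on digoxin arrays and between -0.10 and -0.03 on vehicle arrays, so it did not overlap, and its part in the changes was not tested. Ucp1, the defining gene of brown fat, stood at 0.05 (SE 0.11), and the list shares Cidea and Ppargc1a with the lists above. The 6 atrial cardiomyocyte markers were all lower in mean in digoxin hearts (median -0.92), with arrays of both groups overlapping, from -0.44 to 1.88 in digoxin and from 0.27 to 2.43 in vehicle hearts. With their mean as a covariate the log2 changes were 0.80 for Plin4, 0.39 for Lpin1 and -0.29 for G0s2. The means of ventricular cardiomyocyte, endothelial, macrophage, neutrophil and fibroblast markers overlapped between the groups, and of 61 marker genes in 8 lists none was called in limma, with 12 at an unadjusted p under 0.05 (12.3% of all genes).

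**Figure D5:**
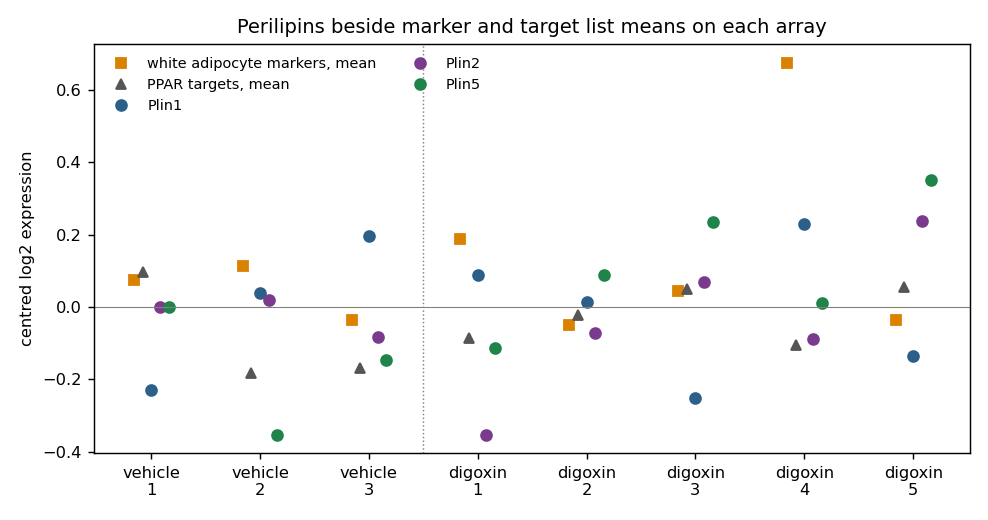
Centred log2 expression (vertical axis) of Plin1, Plin2 and Plin5 on each array, beside the mean over white adipocyte markers and over PPAR receptor, coactivator and target genes. The white adipocyte mean stands apart on digoxin array 4 (0.67), and Plin2 and Plin5 are highest within the digoxin group on arrays 3 and 5.

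Of the arrays themselves, vehicle array 3 had an interquartile range of 0.216 over all probe sets, against 0.0792 to 0.115 on the other 7. Without it 185 genes were called higher and 189 lower, against 210 and 92 with all arrays. The log2 changes were then 0.89 for Plin4, 0.49 for Lpin1 and -0.35 for G0s2. The names of the scanned arrays put all vehicle arrays before all digoxin arrays, so the order of scanning names and the treatment cannot be told apart.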

How the data were processed

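Labelled cDNA from 300 ng of heart RNA per sample was measured on Affymetrix Mouse Gene 2.0 ST arrays. Per the design text, the authors used the GIANT Galaxy tools and Robust Multi-array Average; the submitters' processing notes name limma. The deposited values are log2 expression; the log base is taken as that of the method, and the values were found to be centred for each probe set on a value that is not stated. A constant centre cancels in differences. Filters on dim genes need levels and were not run, and signal over background is unknown. Precision is limited by the number of arrays.

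Of 34351 probe sets, 23521 had 1 symbol in the platform annotation, 1814 several and 9016 none there; those with 1 were averaged per gene, and 1 listed name was matched through a RefSeq synonym. Digoxin was compared with vehicle in limma 3.58.1 (R 4.3.3, lmFit and eBayes, no covariate, two-sided, 6 residual and 2.75 prior degrees of freedom). The members, the 5 pathway lists and the 8 marker lists were chosen with earlier results of these data known. Named were the 10 members and, in each pathway list, up to 4 genes past the test or else the 2 of smallest p; Abhd5, Lpin3, Ppargc1a, marker genes and the neighbours on chromosome 17 were named after their values were seen. Data for this comparison were simulated over 22180 genes, of which 200 were changed. There 79% of changes of 0.5 (log2) and 99% of changes of 1 were recovered, and 6.32% of calls were false. Recovery of smaller changes, which most of the 10 genes had, is not given. Promoter sequences are from RefSeq (GRCm38.p6), in which all 10 genes were found.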

Additional observations from a re-analysis of the deposited data

How the results depend on the processing

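The log2 changes of Plin4, Lpin1, Plin3, Plin5, Pnpla2, Lipe, Lpin2 and G0s2 kept their direction in every fit run, and those of Plin1 and Plin2 did not. Counts are given here as higher and lower in digoxin. At an adjusted p under 0.01, 95 and 23 genes were called, with 1 of the 10 members higher and 0 PPAR genes lower. At 0.1 it was 327 and 166, with 1 member (G0s2) lower. With a change of at least 1.5 times it was 87 and 20, with 1 member higher and 0 and 0 PPAR genes and 0 lipolysis genes higher. With array weights, 320 genes fell and 1 member (G0s2) was lower. With each probe set on its own, the probe set of smallest p stood for its gene. There 94 genes fell and 1 member (G0s2) was lower. Without digoxin replicate 4 and vehicle replicate 3 together, chosen after seeing the data, 282 fell. Of the lipin partners 0 were higher in those settings, other than at 0.1 and with each probe set on its own, and also 0 with quantile normalization, the robust variance model, either marker mean as a covariate, each array left out in turn, or 1 probe set per gene, where Dgke is not tested.

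With 1 array left out, 123 (without digoxin replicate 5) to 185 genes rose and 29 (without vehicle replicate 2) to 189 (without vehicle replicate 3) fell. Of the members 1 to 2 were higher and 0 to 1 lower, and of the PPAR genes 1 to 2 were higher and 0 to 1 lower.

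The labels state no pairing of arrays by replicate number. Deviations of same-numbered arrays correlated at -0.20, -0.018 and 0.02, and 0 of the 6 arrays numbered 1 to 3 correlated best with its own number. So few arrays cannot decide whether the numbers mark a pairing. With the replicate block 11 genes rose and 1 fell, and 0 members, 0 and 0 PPAR genes, 0 lipolysis genes and 0 lipin partners were called. Plin4 was at 0.80 and Lpin1 at 0.42 in that fit, in which digoxin arrays 4 and 5 have no vehicle partner.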

Other observations

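The perilipin genes Plin3, Plin4 and Plin5 lie close together on mouse chromosome 17, where Plin4 and Plin5 are neighbours and Plin3 follows after 7 other protein-coding genes in the RefSeq order. This stretch was taken around these perilipin genes with the call of Plin4 known, and was looked at after its values were seen. From Hdgfl2 before Plin4 to Arrdc5 after Plin3 it holds 12 protein-coding genes, all measured. Of them 2 were called higher (0.947% of all genes) and 0 lower (0.415% of all genes) in limma. These were Plin4 and Sema6b, a transmembrane semaphorin gene, which rose by 0.67 (SE 0.10) with an adjusted p of 0.0122 and was called in all 8 fits that left out an array. Lrg1, a secreted glycoprotein gene that lies between Plin5 and Sema6b, stood at 0.45 (SE 0.10, adjusted p = 0.096), and its groups did not overlap. Hdgfl2, on the other side of Plin4, stood at 0.09 (SE 0.05). The remaining genes between Sema6b and Plin3 ranged from -0.06 in Ticam1 to 0.33 in Fem1a, and none of them was called.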
